A study of Mus musculus with 12 samples.

Results

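Igfbp2-treated Ncf1-/- neural stem cells (NSCs) were compared with WT NSCs, and what differed is described by function. The comparison took in 8 of the 12 RNA-seq libraries of the study, chosen by their labels, namely the 4 libraries of Ncf1-/- cultures given recombinant mouse Igfbp2 (libraries 5 to 8) and the 4 libraries of WT cultures (libraries 9 to 12). It asks which transcripts still differed from WT in Ncf1-/- cells that had been supplied with the binding protein. The remaining 4 libraries (1 to 4), from Ncf1-/- cultures given vehicle, entered the filter, the scaling and the shared spread of the fit. Their values are cited only beside those of the treated cells.

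Ncf1 (p47phox) is the cytosolic organiser subunit of the phagocyte NADPH oxidase, which passes electrons from NADPH to oxygen and so makes superoxide, a source of reactive oxygen species. Igfbp2 is a secreted protein that binds insulin-like growth factors (IGFs) outside the cell and limits or extends their access to the IGF1 receptor. NSCs of the postnatal forebrain divide in EGF and FGF and can give rise to neurons, astrocytes and oligodendrocytes, the cells that make myelin.

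NSCs had been grown from the forebrain of newborn pups, each pup in a culture of its own, and were used as primary cells at an early passage rather than as a line. WT pups were C57BL/6J and Ncf1-/- pups carried the null allele on that background. All groups grew in serum-free medium with EGF, FGF, insulin, transferrin, selenite and B-27, in which Ncf1-/- cultures received Igfbp2 48 h after plating and RNA was prepared 48 h later. The labels give no treatment for WT and a dose of 100 ng per ml for Igfbp2, while the study's methods give a lower dose. In Ncf1-/- cells the gene is lost from every cell of the culture and of the pup, and added Igfbp2 is a protein and adds no mRNA of its own.

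RNA depleted of rRNA was counted per gene, and the 8 libraries held between 18201622 and 34086554 expected counts. Levels are given as CPM, the count of a gene scaled to a fixed library total after TMM factors, and are listed in the order 5 to 8 for treated and 9 to 12 for WT. Differences are log2 fold changes of treated over WT, fitted by edgeR with their standard error (SE), and a gene is called at a Benjamini-Hochberg adjusted p under 0.05 over all 15706 genes tested. The p-values rest on a spread between cultures that was estimated over all 12 libraries, the vehicle-treated ones included. In RNA from whole cultures, fewer cells of a type and less RNA per cell cannot be told apart.

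Some facts about the libraries bear on every result. *Ncf1* itself (ENSMUSG00000015950, chromosome 5, 134220053 to 134229625, GRCm38) had 1 count in each treated library and 2 to 7 counts in the WT libraries, too few for a test or for a check of the genotype. A second sample list, in the study's analysis code, names library 12 among WT cultures given apocynin, an inhibitor of the NADPH oxidase, and the deposited labels give that library no treatment. Libraries of WT varied more than those of treated cells, with a biological coefficient of variation of 0.25 against 0.121. The first principal component of the 8 libraries held 76.16% of the variance and parted the groups, and the second, with 7.268%, parted WT libraries 9 and 10 from 11 and 12. Short structural RNAs (7SL, 7SK and the RNase P and MRP RNAs) took 16.3% ± 3.44 (SD, n = 4) of counts in treated and 12.1% ± 1.63 of counts in WT libraries (exact permutation test, two-sided, p = 0.1143), and they took 62.1% to 72.3% of TPM in treated and 59.8% to 66.8% in WT libraries. The 4 Y-linked genes on the list summed to 7.79 to 9.18 CPM in treated libraries and to 111, 107, 118 and 6.46 CPM in WT libraries. *Xist*, which is transcribed from an inactive X chromosome, stood at 166, 265, 265 and 275 CPM in treated and 3.87, 3.89, 5.22 and 291 CPM in WT libraries. Treated cultures and WT cultures 9 to 11 therefore differed in sex-linked expression as well as in genotype and treatment, and in these 7 libraries the 3 cannot be told apart. In vehicle-treated libraries the Y-linked sum was 105 to 116 CPM, so the treated and vehicle-treated Ncf1-/- cultures differed in sex-linked expression too. Wherever their values stand side by side below, treatment and that difference cannot be told apart. The study's methods state that each Ncf1-/- pup gave paired cultures, for vehicle and for Igfbp2. The Y-linked sums of these groups share no range, so such pairs cannot be seen in these libraries, and the fit used no pairing.

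Of the 15706 genes tested, 9801 (62.4%) were called, 4964 higher (31.6% of genes tested) and 4837 lower (30.8%) in Igfbp2-treated Ncf1-/- than in WT NSCs. Counts of list members below are to be read against these shares. The 4 libraries of one group did not overlap the 4 of the other for 8536 genes (54.3%), 4359 of them higher (27.8%) and 4177 lower (26.6%) in treated cells. The size of the change was at least 2-fold for 3848 of the called genes (39.3%), and at least 16-fold for 78 that were higher and 108 that were lower. For vehicle-treated Ncf1-/- cells against the same 4 WT libraries, 4545 genes (28.9%) were called higher and 4433 (28.2%) lower. Without WT replicate 12, 9956 genes were called, 4570 higher and 5386 lower. With the summed Y-linked level as a covariate, 6733 were called, 3497 higher and 3236 lower. Within a group this level varied widely only in WT, where library 12 stood apart from libraries 9 to 11. Every value with this covariate therefore rests mainly on that contrast, in which sex-linked expression and other traits of library 12 cannot be told apart. When only the 8 libraries compared were fitted, 8962 genes were called, 4349 higher and 4613 lower.

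The split between higher and lower depended on the unit. By TMM-scaled counts 50.6% of called genes were higher, and on TPM, which sums to a fixed total with the short structural RNAs included, 22.2% were higher by limma on log2(TPM + 1) and 17.3% by the study's own test. The median log2 fold change of all genes tested was −0.01 on TMM-scaled counts, −0.10 with library totals, −0.25 on log2(TPM + 1) and −0.26 in the study's own test, so that small rises below are relative to the TMM scale.

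The 10 steepest falls were led by genes of myelinating oligodendrocytes. *Mbp*, which encodes myelin basic protein, stood at 9.8, 7.51, 3.92 and 10.2 CPM in treated and 3694, 3885, 327 and 1886 CPM in WT libraries (log2 fold change −8.28 ± 0.72, adjusted p = 9.85e-07). *Mag* (ENSMUSG00000036634, chromosome 7, 30899176 to 30914873), for the myelin-associated glycoprotein on the innermost myelin wrap, stood at 0.72, 0.841, 0.335 and 0.589 CPM in treated and 232, 305, 34.2 and 107 CPM in WT libraries (log2 fold change −8.11 ± 0.69, adjusted p = 8.61e-07). *Enpp6*, a choline phosphodiesterase known as a marker of newly formed oligodendrocytes, stood at 1.27, 1.74, 0.574 and 1.77 CPM in treated and 456, 423, 90.3 and 249.6 CPM in WT libraries (log2 fold change −7.84 ± 0.55, adjusted p = 1.91e-07). For all 3 genes the lowest WT library was 11, which stood far above each treated library. The steepest falls and rises were ranked only among called genes whose treated and WT libraries did not overlap. The lack of overlap in them was thus set by that choice. *Tmem163*, a zinc transporter, fell by a log2 of 8.26 ± 0.72 and *Cdk18*, a cyclin-dependent kinase family member, by 7.89 ± 0.64. *Grm7*, a metabotropic glutamate receptor, and *Ddc*, the decarboxylase that makes dopamine and serotonin, had values of −6.81 ± 0.72 and −6.66 ± 0.82. The remaining genes were *Tmem151a* (−7.57 ± 0.76), the lincRNA *9530059O14Rik* (−6.92 ± 0.61) and *Fam205a1* (−6.49 ± 0.78).

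The 10 steepest rises were of another kind, with no myelin gene among them. *Adgrd1* (ENSMUSG00000044017, chromosome 5, 129096750 to 129204599), an adhesion G protein-coupled receptor, stood at 33.5, 36.9, 42.6 and 33 CPM in treated and 0.0455, 0.0, 0.086 and 0.0557 CPM in WT libraries. Over all libraries of a group it had 2781 counts in treated and 5 in WT cells, a ratio of 637 per count sequenced (95% exact interval 273 to 1964, for counting error only). *Cd93*, a transmembrane receptor known from endothelial and myeloid cells, stood at 195, 192, 282 and 162 CPM in treated and 0.637, 0.432, 3.07 and 0.946 CPM in WT libraries (log2 fold change 7.19 ± 0.49, adjusted p = 1.51e-07), and the endothelial and microglial genes are described with the other cell types. *Adamts14*, a procollagen aminopropeptidase, stood at 92.5, 97.7, 122 and 87.1 CPM in treated and 0.091, 0.054, 2.18 and 0.557 CPM in WT libraries (log2 fold change 6.83 ± 0.52, adjusted p = 3.73e-07). In these 3 genes library 11 was the highest of WT, and the lack of overlap was again set by how the genes were chosen. Next came *Car4* (6.37 ± 0.49), a membrane-bound carbonic anhydrase, *Aldh1a3* (5.54 ± 0.42), which makes retinoic acid, and *Lrrc32* (5.30 ± 0.37), which tethers latent TGF-beta at the cell surface. *Rab26* (5.03 ± 0.22), a vesicle GTPase, and *Fblim1* (4.95 ± 0.39), a filamin-binding adhesion protein, also rose. *Car3*, a cytosolic carbonic anhydrase, stood at 636, 537, 607 and 498 CPM in treated and 0.773, 0.648, 59.5 and 2.51 CPM in WT libraries, so that WT library 11 alone was some way towards the treated level, and without it the log2 fold change was 8.79 in place of 5.12. The antisense transcript *Gm16010* (4.95 ± 0.33) cannot be told apart from its partner gene unless reads were counted by strand, which the sources used here do not state.

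The lineage genes are shown by library in the plot of 12 such genes, with the vehicle-treated libraries beside the 8 compared.

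**Figure D1:**
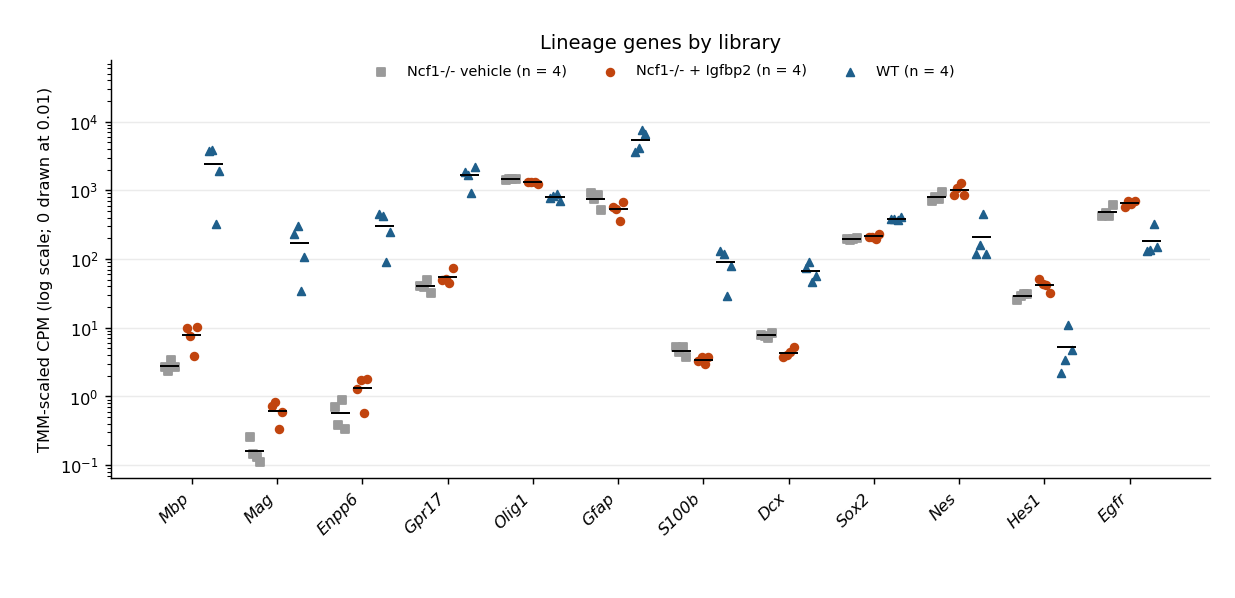
TMM-scaled CPM (log axis) of 12 lineage genes in each library, with vehicle-treated Ncf1-/- as grey squares, Igfbp2-treated Ncf1-/- as red circles and WT as blue triangles, and with group means as black lines (n = 4 per group). *Mbp*, *Mag*, *Enpp6*, *Gpr17*, *Gfap*, *S100b* and *Dcx* lay lower in all treated than in all WT libraries, and *Nes*, *Hes1*, *Egfr* and *Olig1* lay higher.

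Of 19 myelin genes tested, 16 were called lower and 1 higher, with a median log2 fold change of −3.86 against −0.01 over all genes tested. Their summed level was 623, 590.2, 507 and 618 CPM in the treated libraries and 12597, 12654, 2607 and 7560.3 CPM in the WT libraries, with WT library 11 nearest to the treated cells. The member that rose was *Trf*, for the iron carrier transferrin, which stood at 201, 176, 151 and 182 CPM in treated and 16.5, 19.5, 13 and 13 CPM in WT libraries (log2 fold change 3.52 ± 0.14, adjusted p = 3.03e-09). The myelin median in vehicle-treated cells against the same WT libraries was −4.23.

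Genes of oligodendrocyte precursors fell less far, with 13 of 18 lower, 2 higher and a median of −1.47. *Gpr17*, a receptor of precursors that are committed to differentiate, stood at 48.8, 50.6, 44.5 and 73.6 CPM in treated and 1863, 1685, 903 and 2203 CPM in WT libraries (log2 fold change −4.93 ± 0.28, adjusted p = 4.32e-08). *Pdgfra*, the PDGF receptor of precursors, stood at 49.6, 54, 52.8 and 67.2 CPM in treated and 339, 433, 173 and 187 CPM in WT libraries (log2 fold change −2.34 ± 0.25, adjusted p = 5.13e-06). *Tnr*, for the matrix protein tenascin-R (−4.26 ± 0.28), and the sialidase gene *Neu4* (−4.04 ± 0.29) were among the largest falls, and no treated library reached a WT library for these 4 genes. The 2 members called higher were the transcription factors that specify the lineage, *Olig1* (log2 fold change 0.72 ± 0.09, adjusted p = 2.35e-05) and *Olig2* (log2 fold change 0.51 ± 0.09, adjusted p = 0.000188). *Olig1* stood at 1337, 1329.5, 1328 and 1251 CPM in treated and 765, 824, 884 and 710.3 CPM in WT libraries, without overlap, but on log2(TPM + 1) *Olig1* and *Olig2* had values of 0.29 and 0.08 and were not called. *Cspg4* (NG2 proteoglycan), another member, had a value of 0.02 ± 0.14 by counts and was not called.

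Of 22 neuroblast and young neuron genes, 14 were lower, 4 were higher and the median was −1.09. *Dcx*, which encodes the microtubule protein doublecortin of migrating neuroblasts, stood at 3.71, 3.97, 4.45 and 5.25 CPM in treated and 73, 91.1, 45.7 and 56.7 CPM in WT libraries (log2 fold change −3.93 ± 0.20, adjusted p = 2.4e-08). *Elavl3*, for a neuronal RNA-binding protein, stood at 18.3, 20.4, 20.2 and 21.9 CPM in treated and 212, 288, 62.5 and 143 CPM in WT libraries (log2 fold change −3.12 ± 0.34, adjusted p = 6.11e-06). *Dlx2* (−2.68 ± 0.27), a homeobox gene of interneuron precursors, and *Tubb3* (−2.17 ± 0.15), for neuronal beta-tubulin, also fell, each with all treated libraries under all WT libraries. In the other direction went *Sp8* (1.24 ± 0.21), *Elavl4* (0.96 ± 0.17) and *Cd24a* (0.99 ± 0.27), which are known from neuroblasts too, and for *Cd24a* WT library 11 overlapped the treated ones. *Elavl4* and *Cd24a* were not called by limma on log2(TPM + 1) (adjusted p = 0.149 and 0.0728). Neither they nor *Sp8* were called in the study's own test. On log2(TPM + 1) 1 gene of this list was higher and 15 lower, and in the study's own test 0 and 12.

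Astrocyte genes divided, with 12 of 19 lower, 3 higher and a median of −0.87. *Gfap*, the intermediate filament gene of astrocytes and of adult-type stem cells, stood at 575, 541, 356 and 672 CPM in treated and 3667, 4104, 7590.2 and 6536 CPM in WT libraries (log2 fold change −3.35 ± 0.29, adjusted p = 9.54e-07). *S100b*, for a calcium-binding protein, stood at 3.27, 3.79, 2.96 and 3.78 CPM in treated and 132, 118, 29.1 and 79.6 CPM in WT libraries (log2 fold change −4.70 ± 0.40, adjusted p = 8.15e-07). *Aqp4*, the water channel gene of astrocyte endfeet, had a log2 fold change of −2.50 ± 0.19. Both *Gfap* and *S100b* were without overlap, and *Gfap* was highest in WT libraries 11 and 12 where *S100b* was lowest. *Acsbg1*, a fatty acid activating enzyme of astrocytes, rose and stood at 505, 469.8, 459 and 453 CPM in treated and 89.9, 107, 229.9 and 154 CPM in WT libraries (log2 fold change 1.70 ± 0.22, adjusted p = 2.77e-05). *Aldh1l1*, of folate metabolism, stood at 1739, 1626, 1439.7 and 1782 CPM in treated and 241, 257, 1539 and 715 CPM in WT libraries (log2 fold change 1.26 ± 0.45, adjusted p = 0.0277). *Cd44*, the hyaluronan receptor, stood at 149, 143, 143 and 144 CPM in treated and 23.6, 29.4, 142 and 62.2 CPM in WT libraries (log2 fold change 1.16 ± 0.42, adjusted p = 0.0271), with WT library 11 next to or within the treated range for *Aldh1l1* and *Cd44*. The call of *Cd44* was lost without library 5, 6, 7, 9, 10 or 12 (adjusted p from 0.0503 to 0.074) and that of *Aldh1l1* without library 5, 6, 9, 10 or 12 (0.0504 to 0.0665), while without WT replicate 11 the values were 1.92 and 2.03. Neither *Cd44* nor *Aldh1l1* was called by edgeR when only the 8 libraries compared were fitted (adjusted p = 0.068 and 0.0711).

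Neural stem cell genes went both ways, with 8 of 23 higher, 9 lower and a median of 0.16 on TMM-scaled counts that was −0.28 on log2(TPM + 1). *Nes*, which encodes the intermediate filament nestin, stood at 865, 1083, 1294 and 842 CPM in treated and 120.0, 158, 447 and 118 CPM in WT libraries (log2 fold change 2.28 ± 0.37, adjusted p = 0.000173). *Hes1*, a repressor and Notch target, stood at 51.6, 43.5, 42.1 and 32.3 CPM in treated and 2.18, 3.4, 10.8 and 4.79 CPM in WT libraries (log2 fold change 2.95 ± 0.36, adjusted p = 1.35e-05). *Hes5*, a Notch target of the same family, stood at 23.9, 24.8, 16.4 and 25 CPM in treated and 116, 143, 143 and 187 CPM in WT libraries (log2 fold change −2.71 ± 0.21, adjusted p = 3.55e-07). *Egfr*, the receptor for the EGF of the medium, stood at 573, 711, 634 and 698 CPM in treated and 129.8, 135, 322 and 148 CPM in WT libraries (log2 fold change 1.83 ± 0.26, adjusted p = 5.36e-05). *Sox2*, a pluripotency and stem cell factor, stood at 212, 212, 199 and 233 CPM in treated and 382, 383, 371 and 408 CPM in WT libraries (log2 fold change −0.85 ± 0.07, adjusted p = 8.71e-07). None of these 5 genes overlapped between the groups, and WT library 11 was the highest of WT for *Nes*, *Hes1* and *Egfr*.

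Markers of other cells that a forebrain culture could hold were measured too. The 14 microglia genes summed to 36.3 to 45.7 CPM in treated and 19.2 to 33.9 CPM in WT libraries, and of 3 that could be tested 2 were called higher. *Cx3cr1*, *Tmem119*, *Aif1*, *Trem2*, *Tyrobp* and *Ptprc*, which define microglia, had 3 or fewer counts in each of the 8 libraries. The 14 endothelial genes summed to 17.6 to 21.3 CPM in treated and 6.46 to 12.9 CPM in WT libraries, with *Cdh5*, *Tie1*, *Ly6c1* and *Sox17* at or under 3 counts in each. Of 4 endothelial genes tested 2 were higher and 1 lower. *Flt1*, a VEGF receptor gene, stood at 8.58, 9.2, 13.1 and 9.67 CPM in treated and 0.91, 0.702, 2.21 and 5.23 CPM in WT libraries (log2 fold change 2.18 ± 0.47, adjusted p = 0.00138), and was not called with the Y-linked covariate (1.13, adjusted p = 0.0873). *Egfl7* had a log2 fold change of 1.91 ± 0.21 and *Kdr*, another VEGF receptor gene, one of −1.40 ± 0.23. Of 18 pericyte and fibroblast genes 10 could be tested and 7 were higher and 2 lower, with *Kcnj8*, *Dcn*, *Lum* and *Twist2* at or under 3 counts. Their sum was 154, 149, 149 and 169 CPM in treated and 393, 496, 220.2 and 243 CPM in WT libraries (exact permutation test, two-sided, p = 0.0286), lower in treated cells although more members were called higher than lower. *Pdgfra*, which is on the precursor list too, made up on average 55.9 of 155 CPM in treated and 283 of 338 CPM in WT libraries. The fall of the sum is therefore that of *Pdgfra* and not of the list. Those that rose were contractile and fibrillar genes at low level, such as *Acta2* (smooth muscle actin), which stood at 14.5, 14.4, 13.1 and 11.3 CPM in treated and 0.182, 0.27, 2.98 and 0.0557 CPM in WT libraries (log2 fold change 3.67 ± 0.61, adjusted p = 0.000186, and 6.23 without WT replicate 11), *Tagln* (3.21 ± 0.29) and *Col3a1* (4.59 ± 0.39), and those that fell were *Pdgfrb* (−3.34 ± 0.43) and *Pdgfra*. Ependymal genes summed to 58.3 to 82.6 CPM in treated and 22.7 to 69.7 CPM in WT libraries (exact permutation test, two-sided, p = 0.0571), and of 5 tested 3 were higher and 2 lower. *Foxj1*, a factor of multiciliated cells, stood at 74.4, 78, 54.9 and 72.1 CPM in treated and 13.2, 21.2, 55.5 and 21.2 CPM in WT libraries (log2 fold change 1.32 ± 0.33, adjusted p = 0.00347), with WT library 11 in the treated range. *Dnah9*, a dynein chain gene of cilia, stood at 0.332, 0.541, 0.43 and 0.491 CPM in treated and 7.73, 10.8, 9.58 and 5.46 CPM in WT libraries (log2 fold change −4.22 ± 0.28, adjusted p = 1.3e-07). The part of these cells in the lineage results was not tested.

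**Figure D2:**
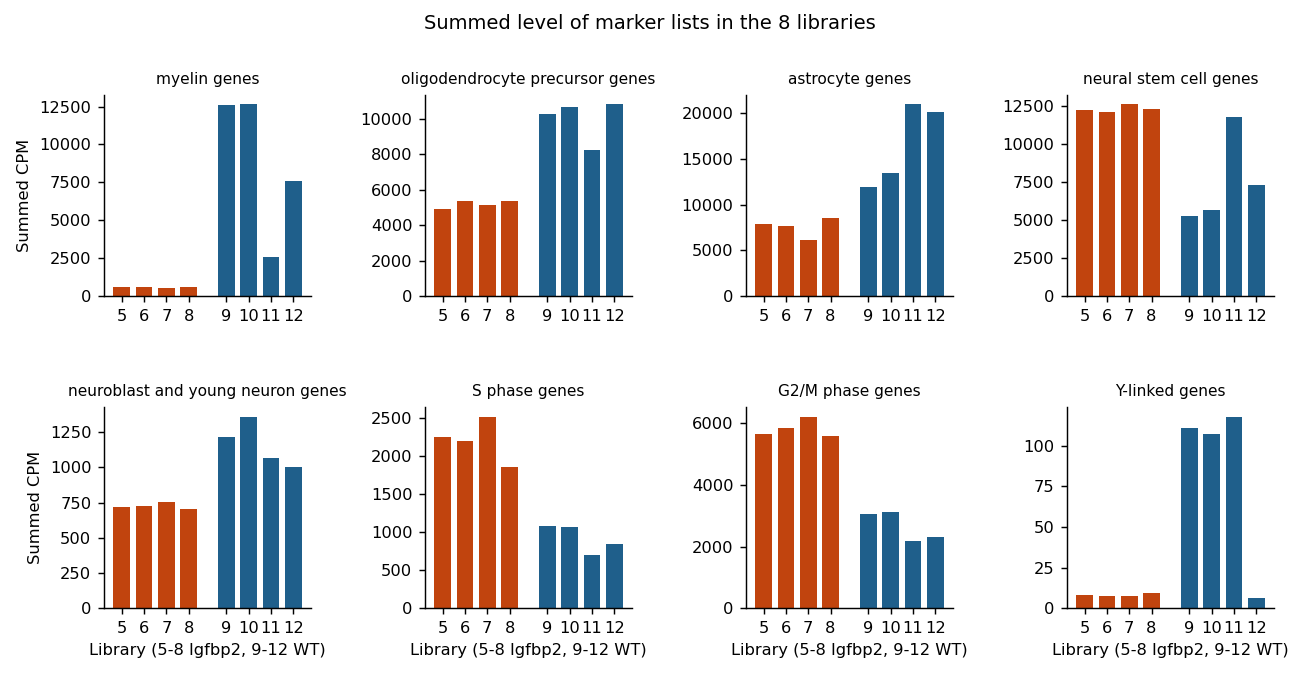
Summed CPM of 8 gene lists in each of the 8 libraries, with Igfbp2-treated Ncf1-/- libraries 5 to 8 in red and WT libraries 9 to 12 in blue, on axes that start at 0. The 4 treated libraries lie below all WT libraries for the myelin, precursor, astrocyte and neuroblast lists and above all of them for S phase, G2/M phase and neural stem cell genes. The Y-linked sum is high only in libraries 9 to 11.

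Genes of DNA replication and mitosis were higher in treated cells on TMM-scaled counts. Of 42 S phase genes 41 were called higher and the remaining 1 was not called, with a median log2 fold change of 1.41, and of 52 G2/M phase genes 48 were higher and 4 were not called, with a median of 1.69. On log2(TPM + 1) 33 S phase and 46 G2/M phase genes were called higher, and in the study's own test 5 and 28 were. The medians in vehicle-treated cells against the same WT libraries were 1.48 and 1.94. Summed, S phase genes stood at 2243, 2196, 2513 and 1850.0 CPM in the treated and 1084, 1064, 694 and 837 CPM in the WT libraries, of which 11 and 12 were the lowest. G2/M phase genes summed to 5653, 5849, 6205 and 5566 CPM and 3052, 3121, 2170.4 and 2319.6 CPM in the same order.

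*Rrm2*, the ribonucleotide reductase subunit that limits deoxynucleotide supply, stood at 184, 175, 205 and 142 CPM in treated and 44.8, 40, 20.4 and 26.7 CPM in WT libraries (log2 fold change 2.42 ± 0.22, adjusted p = 1.22e-06). *Uhrf1*, which brings the maintenance DNA methyltransferase to replicated DNA, stood at 142, 151, 169 and 115 CPM in treated and 40.8, 44.9, 20.9 and 28.7 CPM in WT libraries (log2 fold change 2.10 ± 0.21, adjusted p = 3.47e-06). *Pcna*, the sliding clamp of the replication fork, had a value of 1.17 ± 0.14, *Mcm5*, a subunit of the replicative helicase, 1.42 ± 0.25, and *Gmnn*, for the licensing inhibitor geminin, 2.13 ± 0.13. *Cdk1*, the kinase that drives entry into mitosis, stood at 129, 113, 119 and 104 CPM in treated and 31.1, 30.1, 18.4 and 17.9 CPM in WT libraries (log2 fold change 2.26 ± 0.17, adjusted p = 3.26e-07). *Ccnb2*, a cyclin partner of it, stood at 61.6, 57.8, 54.2 and 55.5 CPM in treated and 12.8, 11.8, 8.15 and 6.96 CPM in WT libraries (log2 fold change 2.53 ± 0.16, adjusted p = 8.22e-08). *Psrc1* (2.34 ± 0.11) and *Gtse1* (2.29 ± 0.15), both of the mitotic spindle, were among the largest rises of the G2/M list. None of these genes overlapped between treated and WT libraries.

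**Figure D3:**
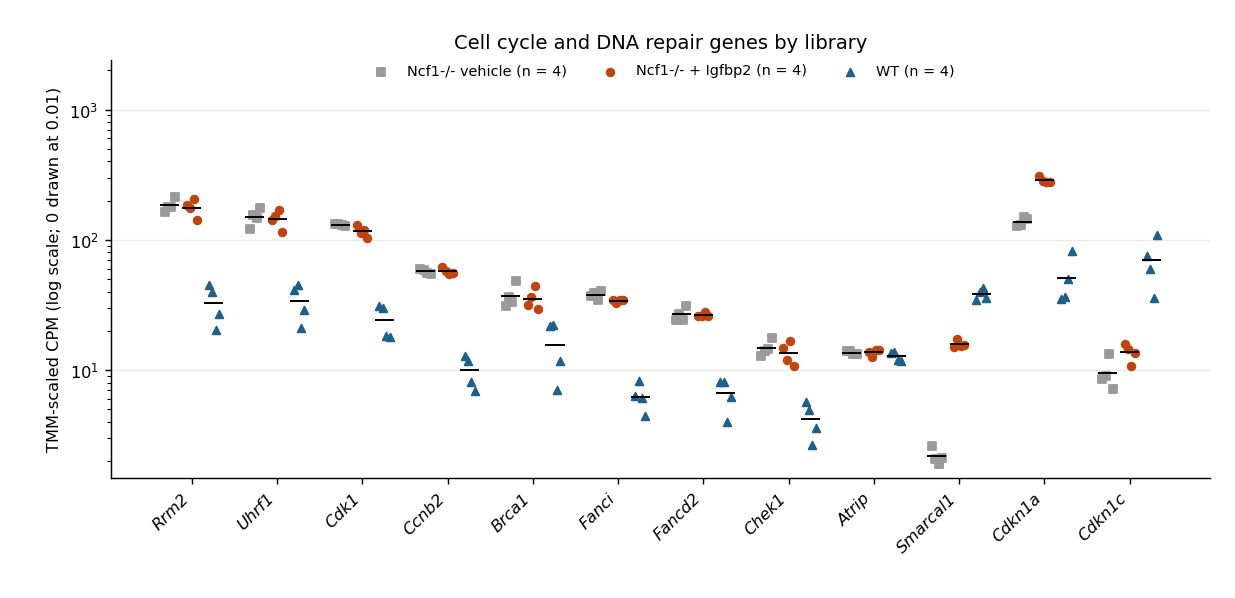
TMM-scaled CPM (log axis) of 12 cell cycle and DNA repair genes in each library, with symbols as in the plot of lineage genes and group means as black lines (n = 4 per group). From *Rrm2* to *Chek1* the treated libraries lie above the WT libraries and beside the vehicle-treated ones, *Atrip* overlaps in all groups, and *Smarcal1* is lower in treated than in WT and lowest in vehicle-treated cells.

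Promoters of S phase genes are known for a short site that the E2F factors read. Those of G2/M phase genes are known for the cell cycle homology region, which the DREAM and MuvB complexes read. CCAAT boxes, searched as well, are a separate element that these do not read. RefSeq (GRCm38.p6) gave a start for 11035 of the genes tested, and the 250 bases before each start were searched on both strands. The letters TTTCCCGC, TTTCGCGC, TTTGCCGC or TTTGGCGC, forms of the E2F site, were found in 9 of 30 S phase genes with a promoter (30%) and in 3.82% of all genes with one. The letters CCAAT were found in 35 of 46 G2/M phase genes (76.1%) and in 21 of 30 S phase genes (70%), against 40.6% of all. The letters TTTGAA or TTCGAA, forms of the cell cycle homology region, were found in 22 of 46 G2/M phase genes (47.8%) and 6 of 30 S phase genes (20%), against 14.2% of all. A match is a run of letters and not a measured binding site. The stretches before *Uhrf1* (chr17:56304063-56304312, plus strand) and *Ccnb2* (chr9:70421555-70421804, minus strand) are shown as examples, each from the 3 largest rises of its list. They were picked because their stretches hold the letters, and the larger S phase rises of *Rrm2* and *Gmnn* were passed over. E2F letters of *Uhrf1* and CCAAT and cell cycle homology letters of *Ccnb2* are in capitals. The E2F letters of *Uhrf1* begin 185 bases before the start, and the capitals of *Ccnb2* mark the cell cycle homology letters 167 bases and the CCAAT letters 87, 54 and 21 bases before it. The *Uhrf1* stretch holds CCAAT letters too, which are left in lower case.
Uhrf1: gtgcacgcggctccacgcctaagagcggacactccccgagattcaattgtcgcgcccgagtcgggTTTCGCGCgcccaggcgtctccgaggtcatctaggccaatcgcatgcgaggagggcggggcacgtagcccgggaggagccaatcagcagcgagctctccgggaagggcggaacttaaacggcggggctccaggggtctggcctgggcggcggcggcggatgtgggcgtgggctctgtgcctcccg
Ccnb2: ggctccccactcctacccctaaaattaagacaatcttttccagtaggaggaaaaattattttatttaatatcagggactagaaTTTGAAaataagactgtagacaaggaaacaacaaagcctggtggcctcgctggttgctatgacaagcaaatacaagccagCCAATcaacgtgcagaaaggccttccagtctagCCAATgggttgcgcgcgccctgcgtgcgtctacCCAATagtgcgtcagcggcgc

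Among brakes on the cycle more genes were higher than lower. Of 24 CDK inhibitors and p53 targets 16 were higher and 1 lower (median 0.54), and on log2(TPM + 1) 8 were higher and 3 lower. *Cdkn1a*, which encodes the CDK inhibitor p21, stood at 311, 285, 276 and 279 CPM in treated and 35, 36.2, 50 and 82.6 CPM in WT libraries (log2 fold change 2.50 ± 0.22, adjusted p = 1.27e-06), above every WT library. *Cdkn1c*, for the inhibitor p57, stood at 15.9, 14.6, 10.8 and 13.6 CPM in treated and 75.6, 59.9, 35.8 and 109.6 CPM in WT libraries (log2 fold change −2.35 ± 0.29, adjusted p = 1.73e-05). *Pmaip1* (2.45 ± 0.13), a pro-apoptotic p53 target, and *Plk2* (2.05 ± 0.17) rose as well, and *Cdkn1b*, for p27, had a value of 0.08 ± 0.10 and was not called.

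On TMM-scaled counts DNA repair genes tied to replication were higher, and others were spread around 0. Of 30 genes of homologous recombination and Brca1 partners 25 were higher and 1 lower (median 0.83, 1.06 in vehicle-treated cells). On log2(TPM + 1) 12 were higher and 2 lower (median 0.24), and in the study's own test 1 was higher and 1 lower. *Brca1*, which directs double-strand breaks to recombination, stood at 31.8, 36.1, 44.1 and 29.3 CPM in treated and 21.6, 22.1, 7.08 and 11.7 CPM in WT libraries (log2 fold change 1.19 ± 0.29, adjusted p = 0.00336). For *Brca1* the lowest WT values were those of libraries 11 and 12, and no WT library reached a treated one. *Bard1*, the partner of Brca1, had a value of 1.49 ± 0.18, the helicase gene *Brip1* 1.88 ± 0.18 and *Rad52*, which fell, −0.65 ± 0.11. In the TPM test of the study *Brca1*, *Bard1* and *Brip1* had log2 fold changes of 0.62, 0.59 and 0.71 and were not called. Some genes of this list (*Brip1*, *Exo1* and *Blm*) stand on the S phase list too.

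The Fanconi anaemia pathway, which unhooks crosslinked DNA strands, had 9 of 18 genes higher, 3 lower and a median of 0.30, which was −0.07 on log2(TPM + 1). The genes for the clamp that the pathway loads, *Fancd2* and *Fanci*, were the clearest. *Fancd2* stood at 25.9, 26.2, 27.8 and 25.9 CPM in treated and 8.1, 8.15, 4.02 and 6.24 CPM in WT libraries (log2 fold change 2.01 ± 0.18, adjusted p = 1.28e-06). *Fanci* stood at 34.5, 32.7, 34.3 and 34.2 CPM in treated and 6.28, 8.26, 6.05 and 4.4 CPM in WT libraries (log2 fold change 2.44 ± 0.14, adjusted p = 4.32e-08). *Fanca*, of the core ubiquitin ligase complex, stood at 10.7, 10.6, 14.7 and 9.18 CPM in treated and 6.14, 7.29, 4.33 and 4.57 CPM in WT libraries (log2 fold change 1.03 ± 0.18, adjusted p = 0.00023), and its vehicle value was 1.72. On log2(TPM + 1) its value was 0.28 and not called. *Ube2t* (1.83 ± 0.18), the E2 enzyme of the complex, and *Fancb* (1.79 ± 0.22) also rose. *Fancc* (0.22 ± 0.10, adjusted p = 0.067) and *Fancl* (0.31 ± 0.13, adjusted p = 0.0539), for other core members, were not called, though both were without WT replicate 9 (0.035 and 0.0184), and *Ercc4*, a nuclease gene, had a value of −0.44 ± 0.07 and was called lower.

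Of 22 checkpoint genes 14 were higher and 2 lower (median 0.95). The effector kinase genes *Chek1* (1.70 ± 0.22) and *Chek2* (2.12 ± 0.11) and *Wee1* (1.92 ± 0.13), for a kinase that restrains Cdk1, rose. *Atrip*, which brings the kinase Atr to single-stranded DNA, stood at 13.8, 12.6, 14.2 and 14.2 CPM in treated and 13.5, 13.8, 11.9 and 11.7 CPM in WT libraries (log2 fold change 0.11 ± 0.09, adjusted p = 0.279) and *Atr* had a value of 0.23 ± 0.16. *Smarcal1* (ENSMUSG00000039354, chromosome 1, 72583251 to 72633134), for an annealing helicase that restarts stalled forks, stood at 15.1, 17.4, 15.4 and 15.7 CPM in treated and 34.6, 40, 42.5 and 35.7 CPM in WT libraries (log2 fold change −1.27 ± 0.10, adjusted p = 4.39e-07). Its mean was 15.9 ± 1.03 CPM in treated, 38.2 ± 3.68 CPM in WT and 2.18 ± 0.306 CPM in vehicle-treated cells (SD, n = 4 each), a vehicle log2 fold change of −4.13. *Rfc2*, a clamp loader gene and the seventh tested gene after *Ncf1* on chromosome 5, had a value of 0.85 ± 0.08 and its vehicle value was 0.94.

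Mismatch repair genes were 5 of 8 higher and 1 lower (median 0.41, and −0.15 on log2(TPM + 1)). *Msh3*, a mismatch recognition gene, had a log2 fold change of −0.66 ± 0.12. Excision repair genes had 12 of 27 higher and 4 lower (median 0.17, and −0.25 on log2(TPM + 1)). Among them *Ung*, the glycosylase that removes uracil from DNA, had a log2 fold change of 2.0 ± 0.17 and *Parp1*, the sensor of strand breaks, −0.76 ± 0.13. End joining, which ligates broken ends without a template, had 4 of 13 genes higher and 4 lower, near the shares over all genes tested. On log2(TPM + 1) 0 were higher and 5 lower. There *Xrcc5* (0.54 ± 0.08) and *Xrcc6* (0.51 ± 0.09), for the 2 Ku subunits, rose by counts but were not called on log2(TPM + 1) (0.10 and 0.02), and *Lig4* (−0.47 ± 0.15, adjusted p = 0.0527 without WT replicate 9) and *Trp53bp1* (−0.41 ± 0.09) fell.

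**Figure D4:**
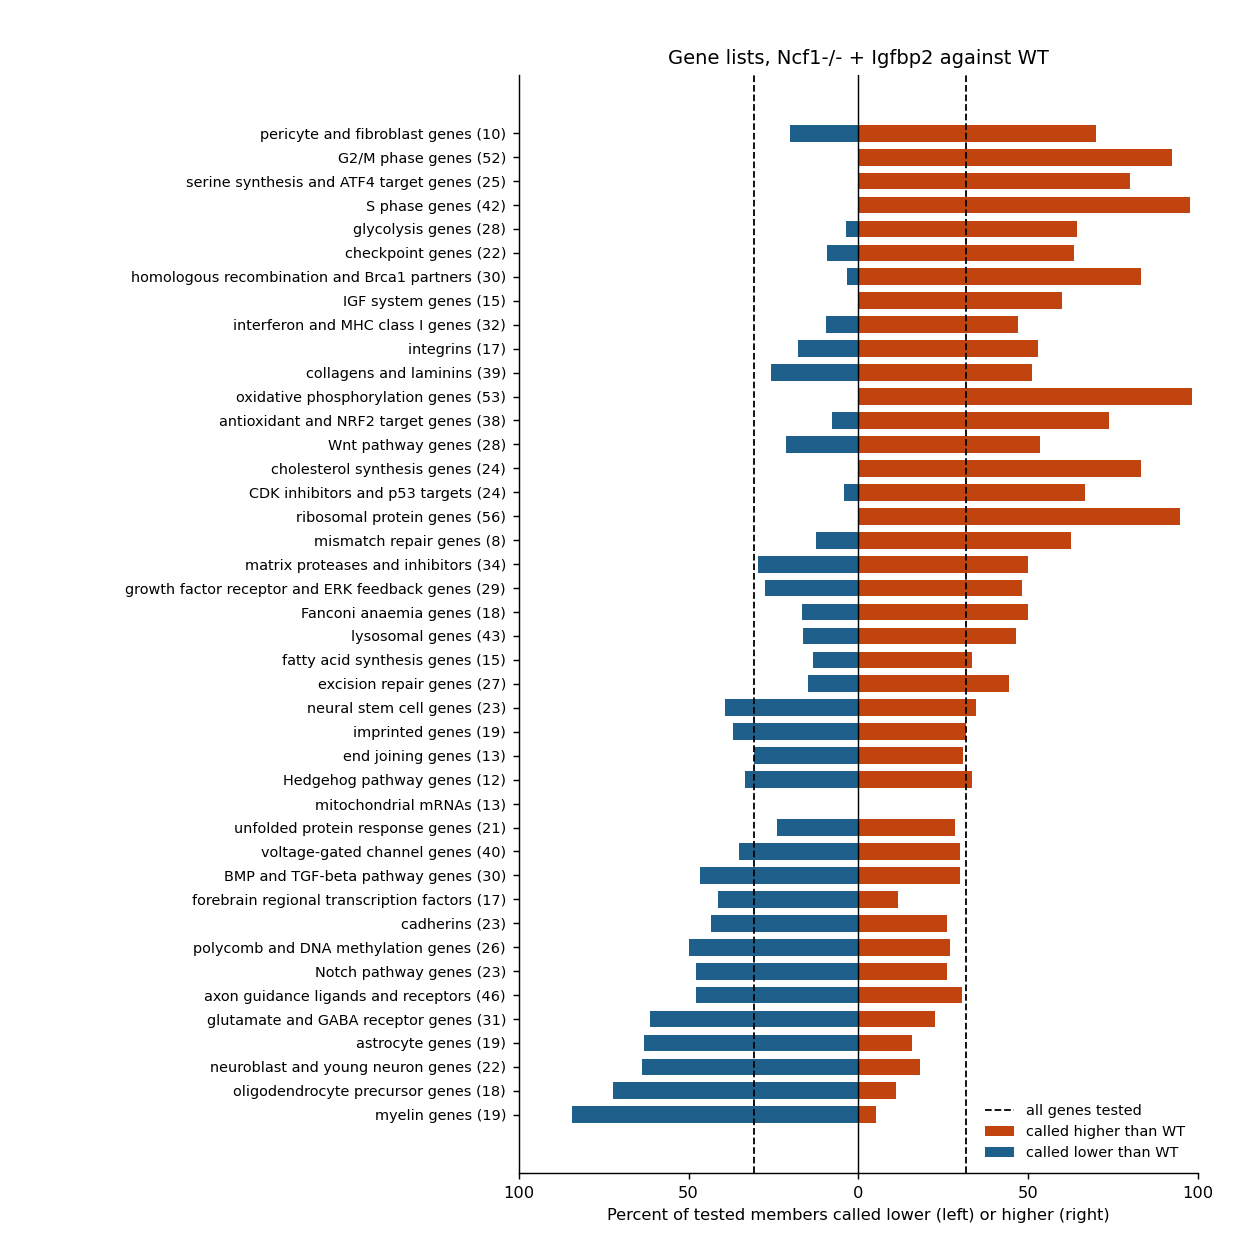
Percent of the tested members of each gene list that were called higher (right, red) or lower (left, blue) in Igfbp2-treated Ncf1-/- than in WT NSCs by edgeR, with the number tested in parentheses and lists ordered by their median log2 fold change. The dashed lines give the percent over all genes tested, 31.6 higher and 30.8 lower. S phase, G2/M phase, oxidative phosphorylation and ribosomal protein genes reach furthest to the right and myelin genes furthest to the left.

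Genes of the IGF system were higher or not called. Of 15 tested 9 were higher and 6 were not called, with a median of 0.82, and in vehicle-treated cells 6 were higher and 7 lower with a median of −0.07. On log2(TPM + 1) 5 of the 15 were higher and 1 lower in treated cells (median 0.26). *Igfbp2* mRNA (ENSMUSG00000039323, chromosome 1, 72824503 to 72852474) stood at 1278, 1030.2, 1016 and 1076 CPM in treated and 28.9, 27.4, 228 and 108 CPM in WT libraries (log2 fold change 3.48 ± 0.56, adjusted p = 0.000135). The treated cultures had several times the *Igfbp2* mRNA of the highest WT library, 11, and the vehicle value was 2.80. *Igfbp4*, for another binding protein, stood at 275, 251, 266 and 233 CPM in treated and 7.6, 6.64, 22.4 and 24.8 CPM in WT libraries (log2 fold change 4.05 ± 0.37, adjusted p = 1.32e-06). The ligand gene *Igf1*, at low level, stood at 2.77, 2.4, 3.01 and 2.11 CPM in treated and 0.136, 0.108, 0.459 and 0.111 CPM in WT libraries (log2 fold change 3.44 ± 0.41, adjusted p = 1.2e-05). *Grb10*, an imprinted adaptor that damps insulin receptor signalling, had a value of 2.07 ± 0.14, and *Igf2* one of 1.17 ± 0.62 (adjusted p = 0.117), which without WT replicate 11 was 2.84 (adjusted p = 3.65e-05).

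Among growth factor receptor genes and feedback genes of ERK signalling, 14 of 29 were higher and 8 lower (median 0.37, and −0.05 on log2(TPM + 1)). The feedback inhibitors that ERK signalling induces were the largest rises. *Dusp6*, a phosphatase of ERK, stood at 127, 106, 136 and 81 CPM in treated and 6.55, 7.5, 13.9 and 6.79 CPM in WT libraries (log2 fold change 3.67 ± 0.25, adjusted p = 1.32e-07). *Spry4* stood at 178, 170.0, 218 and 137 CPM in treated and 20.2, 17.1, 14.8 and 20 CPM in WT libraries (log2 fold change 3.29 ± 0.17, adjusted p = 2.46e-08) and *Spry1* had a log2 fold change of 3.07 ± 0.13. No WT library reached a treated one for these genes. Their vehicle values were 2.35, 1.68 and 2.25. The receptor genes *Erbb4* (−1.68 ± 0.12), *Pdgfrb* and *Pdgfra* were the largest falls.

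Notch pathway genes were 6 of 23 higher and 11 lower (median −0.33). Besides *Hes1* and *Hes5*, *Lfng*, a glycosyltransferase that tunes Notch to its ligands, had a value of 2.16 ± 0.28 and the ligand genes *Dll3* and *Jag2* had values of −2.03 ± 0.17 and −2.29 ± 0.44. BMP and TGF-beta genes were 9 of 30 higher and 14 lower (median −0.12). The ligand gene *Bmp4* stood at 0.941, 0.721, 0.956 and 1.18 CPM in treated and 74.9, 63.6, 27.6 and 67.3 CPM in WT libraries (log2 fold change −5.92 ± 0.35, adjusted p = 5.39e-08). *Bmp7*, another ligand, stood at 53.7, 48.5, 63.7 and 40.8 CPM in treated and 7.55, 9.18, 7.17 and 9.35 CPM in WT libraries (log2 fold change 2.64 ± 0.14, adjusted p = 3.12e-08). *Nog*, for the BMP antagonist noggin, fell too (−4.35 ± 0.44), as did the inhibitory *Smad7* (−3.86 ± 0.33), and neither BMP ligand overlapped between the groups.

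Wnt pathway genes were 15 of 28 higher and 6 lower (median 0.66). On log2(TPM + 1) 7 were higher and 7 lower (median 0.15), and in the study's own test 3 and 3 (median 0.06). *Wnt4* (2.04 ± 0.14), a ligand, and *Nkd1* (2.02 ± 0.20), a feedback inhibitor, rose, and the transcription factors of the pathway *Tcf7l1* (−1.69 ± 0.09) and *Tcf7l2* (−2.18 ± 0.18) fell. Of 12 Hedgehog genes 4 were higher and 4 lower, with the co-receptor *Gas1* at 1.01 ± 0.16 and its fellow *Boc* at −1.28 ± 0.16. Forebrain regional transcription factors were 7 of 17 lower and 2 higher. *Emx2*, of the dorsal forebrain, had a log2 fold change of 0.86 ± 0.12. Of 28 factors of midbrain, hindbrain and spinal cord, 5 were high enough to test.

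Genes of the extracellular matrix were more often higher than lower, with 20 of 39 collagens and laminins called higher and 10 lower (median 0.72, 0.16 in vehicle-treated cells). In the study's own test 11 were higher and 7 lower, at a median of 0.15. *Col18a1*, a basement membrane collagen, stood at 113, 104, 104 and 107 CPM in treated and 2.91, 1.84, 7.54 and 5.46 CPM in WT libraries (log2 fold change 4.55 ± 0.31, adjusted p = 1.44e-07), and *Lamb1*, a laminin chain, had a log2 fold change of 3.26 ± 0.34. *Col11a2* (−5.44 ± 0.46) and *Col9a1* (−3.70 ± 0.22), known from cartilage and glia, fell. Without WT replicate 12 the median of these 39 genes was 1.37, and without WT replicate 11 it was 1.22. Matrix proteases and their inhibitors were 17 of 34 higher and 10 lower, with *Adam19* (3.59 ± 0.25) beside *Adamts14* among the rises. On log2(TPM + 1) 13 of these 34 were higher and 11 lower (median 0.02). Integrins were 9 of 17 higher and 3 lower, with *Itga5*, of the fibronectin receptor, at 58.8, 53.7, 57 and 55.1 CPM in treated and 7.55, 7.23, 17.2 and 17.3 CPM in WT libraries (log2 fold change 2.18 ± 0.25, adjusted p = 8.41e-06) and *Itgb7* at −5.01 ± 0.59 on the log2 scale of the difference.

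Of 23 cadherins 10 were lower (43.5%) and 6 higher (26.1%), against 30.8% lower and 31.6% higher over all genes tested. Among them *Cdh11* (−2.18 ± 0.14) and *Pcdh8* (−3.34 ± 0.37) fell and *Cdh4* (1.86 ± 0.28) rose. Axon guidance ligands and receptors were 22 lower and 14 higher of 46 (median −0.38). *Plxnb3*, a semaphorin receptor of oligodendrocytes, stood at 22.1, 25.9, 24.1 and 25.1 CPM in treated and 741, 757, 231 and 519.5 CPM in WT libraries (log2 fold change −4.53 ± 0.31, adjusted p = 1.58e-07), and *Sema4d*, a semaphorin known from the same cells, had a value of −3.95 ± 0.38. *Epha2* (4.78 ± 0.39), *Sema3a* (2.63 ± 0.32) and *Ntn1*, for netrin (2.16 ± 0.24), rose. Glutamate and GABA receptor genes were 19 lower and 7 higher of 31 (median −0.75). The NMDA receptor genes *Grin2c* (−5.05 ± 0.50) and *Grin2a* (3.56 ± 0.33) moved in opposite directions, and the AMPA receptor genes *Gria2* (−1.52 ± 0.14) and *Gria1* (1.93 ± 0.25) did so too. Voltage-gated channel genes were 12 higher and 14 lower of 40, near the shares over all genes tested.

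Metabolic genes were higher in most lists. Of 53 nuclear genes of oxidative phosphorylation 52 were higher and 1 was not called, at a median of 0.71 that was 0.26 on log2(TPM + 1), where 22 were called higher. *Atp5b*, the catalytic beta subunit gene of ATP synthase, stood at 1700.5, 1431, 1396 and 1454 CPM in treated and 742, 707, 753 and 685 CPM in WT libraries (log2 fold change 1.05 ± 0.09, adjusted p = 1.2e-06). The 13 mRNAs of the mitochondrial genome had a median of 0.00 and 0 were called by edgeR, with 2 at an unadjusted p under 0.05, 1 called by DESeq2 and 1 by limma voom. On log2(TPM + 1) 4 of them were lower, and without WT replicate 12 edgeR called 2 lower and without WT replicate 11 it called 1 higher. Ribosomal protein genes were 53 of 56 higher and 3 not called (median 0.53), 7 of them on log2(TPM + 1) (median 0.10) and 19 of them with the Y-linked covariate. Processed pseudogenes share reads with ribosomal protein genes, which makes single values uncertain.

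Glycolysis and hypoxia-response genes were 18 of 28 higher and 1 lower, with a median of 1.15 against 0.19 in vehicle-treated cells. *Gpi1*, glucose phosphate isomerase, stood at 2407, 1909, 2184 and 2771 CPM in treated and 316, 291, 361 and 976 CPM in WT libraries (log2 fold change 2.25 ± 0.34, adjusted p = 7.57e-05). Both glucose transporter genes rose. *Slc2a1* stood at 228, 211, 259 and 228 CPM in treated and 55.1, 59.8, 37.7 and 186 CPM in WT libraries (log2 fold change 1.45 ± 0.38, adjusted p = 0.00474). *Slc2a3* stood at 76.6, 68.1, 92.9 and 94.9 CPM in treated and 10.3, 8.04, 21.3 and 61.9 CPM in WT libraries (log2 fold change 1.72 ± 0.48, adjusted p = 0.00735). *Car9*, a hypoxia-induced carbonic anhydrase, stood at 22.5, 15.2, 18.6 and 28.2 CPM in treated and 0.091, 0.0, 0.889 and 7.29 CPM in WT libraries (log2 fold change 3.45 ± 0.79, adjusted p = 0.00208, and 5.60 without WT replicate 12). WT library 12 was the highest of WT for each of these genes and stood near the treated libraries for the transporters. Without it 24 of the 28 were called higher, at a median of 1.56, and with the Y-linked covariate 8 were, at a median of 0.44. Within WT that covariate varies mainly by library 12 itself. In that fit *Gpi1* had a value of 1.40 and was called, and *Slc2a1* (0.45, adjusted p = 0.104) and *Slc2a3* (0.64, adjusted p = 0.214) were not.

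Serine synthesis genes and targets of ATF4, the factor of the amino acid response, were 20 of 25 higher and 5 not called (median 1.47, 0.66 in vehicle-treated cells). *Slc7a3*, a carrier of cationic amino acids, stood at 18.1, 15.3, 17.5 and 18.7 CPM in treated and 0.409, 0.54, 1.69 and 3.01 CPM in WT libraries (log2 fold change 3.63 ± 0.39, adjusted p = 5.8e-06), while the enzyme genes *Phgdh* and *Psat1* had called values of 0.34 ± 0.10 and 0.27 ± 0.10 that were −0.09 and −0.20 on log2(TPM + 1). The call of *Psat1* was lost without each library but 9 (adjusted p from 0.0802 to 0.246) and that of *Phgdh* without library 5 or 6 (0.0909 and 0.0566). With the Y-linked covariate 14 were higher, at a median of 0.69. Cholesterol synthesis genes were 20 of 24 higher and 4 not called (median 0.56, 0.26 in vehicle-treated cells), among them *Insig1* (1.23 ± 0.10) and *Hmgcs1* (0.55 ± 0.11). On log2(TPM + 1) 7 were higher and 2 lower (median 0.09), with *Hmgcs1* at 0.12 and not called, and in the study's own test 1 was higher. Of the fatty acid genes *Scd1*, a desaturase, stood at 849.8, 900.4, 963 and 945 CPM in treated and 411, 329.7, 363 and 539 CPM in WT libraries (log2 fold change 1.15 ± 0.14, adjusted p = 1.87e-05), with a vehicle value of 0.00, and *Elovl7*, an elongase, had a value of −4.05 ± 0.40.

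**Figure D5:**
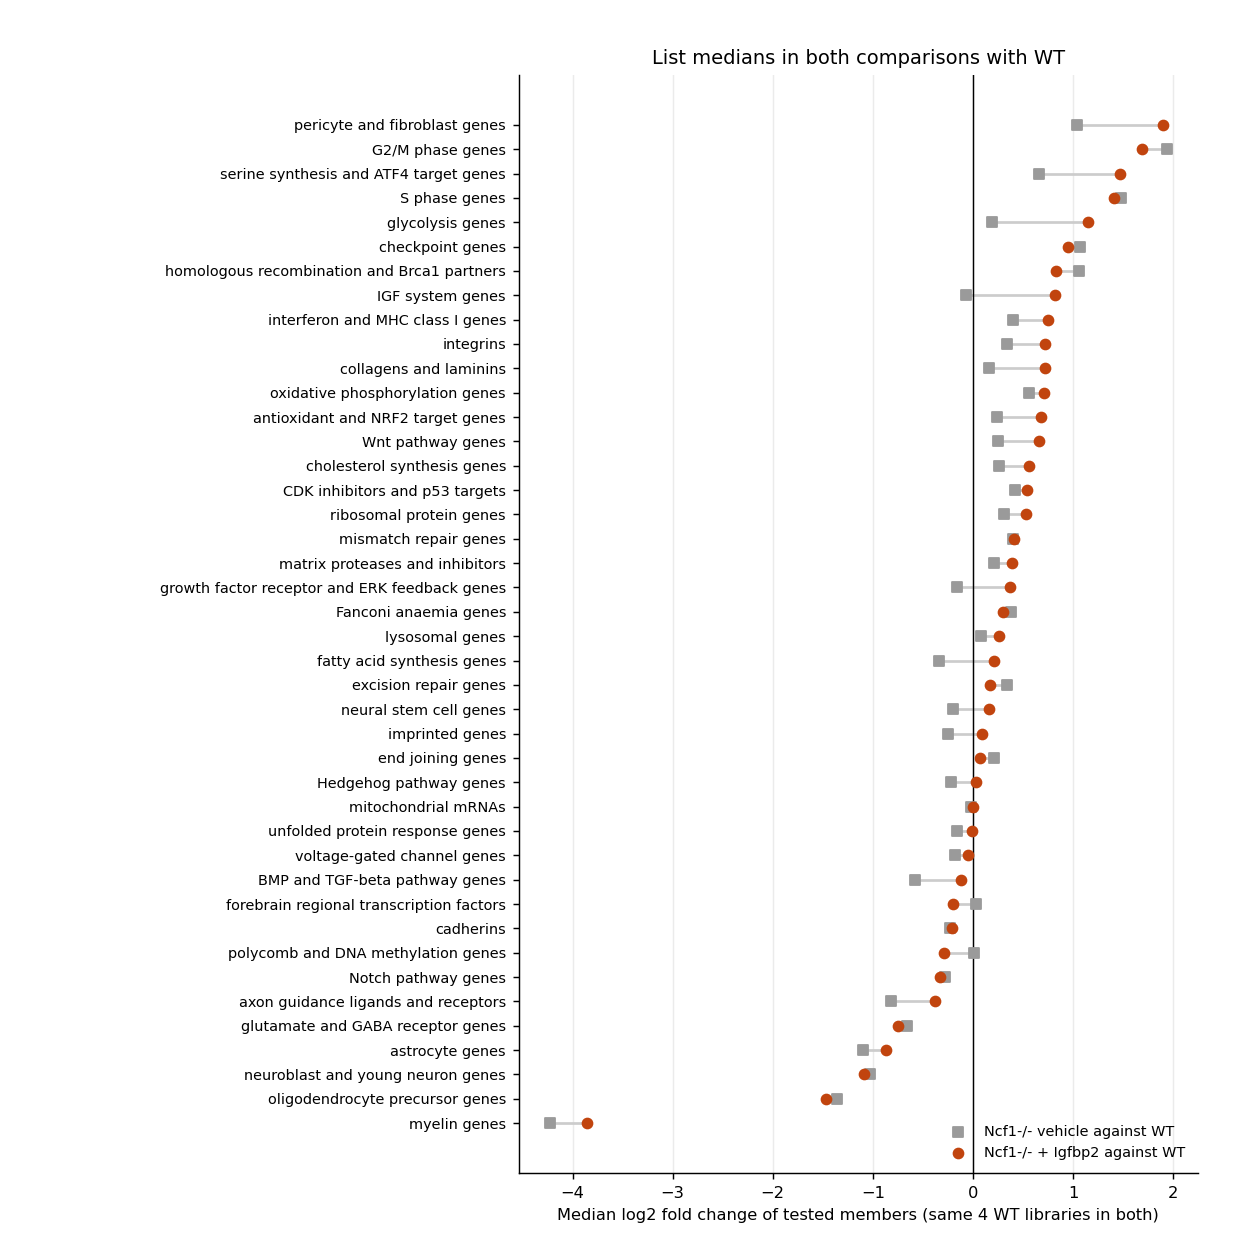
Median log2 fold change of the tested members of each gene list for Igfbp2-treated Ncf1-/- (red circles) and vehicle-treated Ncf1-/- cells (grey squares), each against the same 4 WT libraries, which both comparisons share. The IGF system, glycolysis and serine synthesis lists have medians of 0.82, 1.15 and 1.47 with Igfbp2 and of −0.07, 0.19 and 0.66 with vehicle, and the S phase, G2/M phase and myelin lists have like medians in both. The 2 Ncf1-/- groups also differed in the Y-linked sum (7.79 to 9.18 CPM with Igfbp2, 105 to 116 CPM with vehicle), and with that sum as a covariate the medians with Igfbp2 were 0.90, 0.44 and 0.69. Within groups that sum varied widely only in WT, by library 12.

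NADPH oxidase genes were mostly too low to compare, since 5 of 14 could be tested and 0 were called by edgeR (0 at an unadjusted p under 0.05, 0 by DESeq2 and 0 by limma voom). On log2(TPM + 1) 2 of the 5 were lower, and 1 was lower in the study's own test, with library totals and without WT replicate 11. Antioxidant genes and targets of NRF2, the factor of the oxidant response, were 28 of 38 higher and 3 lower (median 0.68, 0.24 in vehicle-treated cells). On log2(TPM + 1) 12 of these 38 were higher and 5 lower (median 0.24), and in the study's own test 9 were higher and 3 lower. *Txn1*, which encodes thioredoxin, stood at 398, 336, 345 and 335 CPM in treated and 57.9, 59.1, 84.8 and 61.8 CPM in WT libraries (log2 fold change 2.42 ± 0.12, adjusted p = 2.4e-08). *Nqo1*, a quinone reductase and NRF2 target, stood at 17.2, 15.6, 10.2 and 15.6 CPM in treated and 3.0, 3.18, 4.62 and 3.62 CPM in WT libraries (log2 fold change 2.0 ± 0.19, adjusted p = 1.85e-06). *Sod3* (3.02 ± 0.43), the extracellular superoxide dismutase, and *Hmox1* (0.83 ± 0.13), haem oxygenase, rose, and *Cat* (−0.26 ± 0.07), for catalase, *Prdx6* (−0.74 ± 0.22) and *Taldo1* (−0.74 ± 0.18) fell. *Hmox1* was not called on log2(TPM + 1) (0.38, adjusted p = 0.107), *Prdx6* in the study's own test (adjusted p = 0.114) or *Taldo1* with the Y-linked covariate (−0.55, adjusted p = 0.102), and both *Prdx6* and *Taldo1* overlapped between the groups. *Txn1* and *Nqo1* did not overlap between the groups. The vehicle value of *Hmox1* was −0.08.

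Interferon and MHC class I genes were 15 of 32 higher and 3 lower (median 0.75). On log2(TPM + 1) 10 were higher and 6 lower (median 0.14), and in the study's own test 4 and 1 (median 0.08). *Bst2* (2.82 ± 0.33), for tetherin, and *Rsad2* (2.17 ± 0.26), for viperin, rose from low levels, and *Mx2* fell (−2.25 ± 0.32). Unfolded protein response genes were 6 higher and 5 lower of 21, with the chaperone gene *Hsp90b1* at 0.66 ± 0.10 and *Syvn1* at −0.54 ± 0.08. On log2(TPM + 1) 0 were higher and 10 lower, and *Hsp90b1* was at 0.24 and not called. Lysosomal genes were 20 higher and 7 lower of 43 (median 0.26, and −0.14 on log2(TPM + 1)), with *Ctsh* (3.06 ± 0.35), a cathepsin, the largest rise.

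Polycomb and DNA methylation genes were 13 lower and 7 higher of 26 (median −0.29). *Pcgf2*, a subunit of the complex that ubiquitinates histone H2A, stood at 3.77, 5.23, 5.69 and 4.08 CPM in treated and 21.8, 26.3, 18.9 and 20.3 CPM in WT libraries (log2 fold change −2.21 ± 0.16, adjusted p = 3.09e-07). *Dnmt3a*, the de novo methyltransferase, had a value of −0.68 ± 0.13 against 0.64 ± 0.17 for *Dnmt1*, the maintenance enzyme, which was not called without library 7 (adjusted p = 0.0517), with the Y-linked covariate (0.0754), on log2(TPM + 1) (0.465) or in the study's own test (0.951). Of 19 imprinted genes 6 were higher and 7 lower. The paternally expressed *Mest* stood at 589.6, 540.1, 714 and 454 CPM in treated and 25.8, 35.8, 84 and 40.8 CPM in WT libraries (log2 fold change 3.62 ± 0.32, adjusted p = 1.19e-06), and *Peg10* had a value of 2.80 ± 0.24, whereas *Meg3*, a maternally expressed noncoding RNA, was low and had one of −2.98 ± 0.54. *H19* stood at 108, 97.2, 81.1 and 136 CPM in treated and 4.59, 3.62, 247 and 103 CPM in WT libraries (log2 fold change 0.23 ± 0.88, adjusted p = 0.83), so that WT libraries 11 and 12 and the treated cells were high and WT libraries 9 and 10 low.

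The genes around the deleted gene and around the gene of the added protein were looked at by position. Of the 20 tested genes nearest to *Ncf1*, 10 on each side, 12 were lower and 3 higher (median −0.86), and of the 20 nearest to *Igfbp2*, 3 were lower and 6 higher (median 0.29). Nearest here means by order and not by distance. Genes 6 to 10 before *Ncf1*, all lower (−1.74 to −4.12), were transcripts with WT means of 0.86 to 2.38 CPM. They lay together at 131972050 to 132499837, whereas gene 5 starts at 134099711. *Smarcal1* is the second gene before *Igfbp2*.

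The 4 Y-linked genes were called lower. *Kdm5d* stood at 3.32, 3.67, 2.92 and 3.63 CPM in treated and 43.1, 41.3, 56.1 and 3.12 CPM in WT libraries (log2 fold change −3.42 ± 0.58, adjusted p = 0.000227) and *Eif2s3y* at 1.11, 0.781, 1.0 and 0.982 CPM in treated and 16.4, 18.5, 20.1 and 0.445 CPM in WT libraries (log2 fold change −3.84 ± 0.71, adjusted p = 0.000418). In each of them WT library 12 was at or near the treated level, and their vehicle values lay between 0.13 and 0.85. *Xist* was not called (log2 fold change 1.68 ± 1.09, adjusted p = 0.194), and without WT replicate 12 its value was 5.73 (adjusted p = 7.95e-09).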

How the data were processed

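RNA of primary NSC cultures, 1 library per culture, was depleted of rRNA, mapped with Bowtie2 and quantified with RSEM on GRCm38 by the authors, per the labels and the study's methods, with versions not given in the sources used here. The expected count per gene (RSEM's estimated count, not normalized) and the TPM were deposited by the authors for each library. A merged table of the series was not used. Expected counts, of which 15.877% were not whole, were rounded. Of 45792 gene identifiers, 45143 matched a symbol in GENCODE M21, from which positions were taken.

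Genes were filtered by filterByExpr over the 3 groups, which kept 15706 genes with 99.9% of counts, scaled by TMM factors and tested with the quasi-likelihood test of edgeR 4.0.16 (R 4.3.3), with a mean per group over the 12 libraries, no covariate, two-sided p-values and Benjamini-Hochberg adjustment over all genes tested. The median SE of a log2 fold change was 0.141. Summed levels were compared by exact permutation tests (scipy 1.17.1), whose smallest p for 4 against 4 is 0.0286. Genes at or under 3 counts per library were taken as at the floor, and intervals and floors cover counting error only.

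The members, lists and tests were chosen with earlier results of these data known. Named genes were the 10 largest rises and falls among called genes without overlap whose mean over the 8 libraries reached 5 CPM, genes that the study's account names, the 3 largest rises and falls and the first 2 members of each of 49 lists written from general knowledge, and sex-linked genes, and not every such gene is described or reported here. The cell type markers *Tmem119*, *Aif1*, *Trem2*, *Tyrobp*, *Ptprc*, *Tie1*, *Ly6c1*, *Sox17*, *Kcnj8*, *Dcn*, *Lum* and *Twist2* and the recombination gene *Blm* were named after their values were seen.

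Alternatives were DESeq2 1.42.0, library totals, limma 3.58.1 (voom with group weights, or log2(TPM + 1) and log2(TPM + 0.1)), the study's own test on TPM, other filters and thresholds, the 8 libraries alone, the summed Y-linked level as a covariate, and leaving out each library. On simulated counts of 15431 genes, edgeR called 93 of 98 genes changed 4-fold (94.9%), 68 of 96 changed 2-fold (70.8%) and 7 of 15237 unchanged genes. The simulation gave all groups the same spread and changed few genes, equally in both directions. In the data 62.4% of genes were called and WT libraries varied more, so these rates cannot be taken as those of this comparison. Promoter letters were searched in RefSeq sequences of GRCm38.p6.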

Additional observations from a re-analysis of the deposited data

Results flagged for a closer look

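Within each group of 4 libraries, the levels of the 170 genes with values here were looked at for a library far from the other 3, by Dixon's ratio at 95%. Of 340 gene and group pairs 30 stood out, and chance flags about 1 in 20 groups. All values are CPM.

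WT library 11 was the highest of WT for *Acta2* (2.98, the others 0.0557 to 0.27), *Car3* (59.5, the others 0.648 to 2.51), *Cd24a* (114, the others 39.6 to 48.5), *Col3a1* (0.287, the others 0.054 to 0.091), *Dusp6* (13.9, the others 6.55 to 7.5), *Egfr* (322, the others 129.8 to 148), *Gria1* (26.5, the others 9.77 to 11.1), *Igf1* (0.459, the others 0.108 to 0.136), *Nes* (447, the others 118 to 158) and *Txn1* (84.8, the others 57.9 to 61.8). It was the lowest for *Aqp4* (559, the others 793 to 821), *Col9a1* (21.5, the others 41.8 to 43.9), *Erbb4* (93.4, the others 104 to 106), *Tcf7l2* (123, the others 236 to 256) and *Tnr* (786, the others 1859 to 2052). For 15 of these 15 genes, library 11 lay towards the mean of the treated libraries.

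WT library 12, named as apocynin-treated in the second sample list, was the highest of WT for *Car9* (7.29, the others 0 to 0.889), *Gpi1* (976, the others 291 to 361), *Slc2a1* (186, the others 37.7 to 59.8) and *Xist* (291, the others 3.87 to 5.22). WT library 9 was the highest for *Chek2* (4.09, the others 3.36 to 3.45) and the lowest for *Grin2a* (0.5, the others 1.03 to 1.06).

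Among treated libraries, 5 was the highest for *Txn1* (398, the others 335 to 345) and the lowest for *Xist* (166, the others 265 to 275). Library 6 was the highest for *Tubb3* (8.41, the others 7.02 to 7.2) and the lowest for *Kdr* (1.38, the others each 1.77). Library 7 was the highest for *Fancb* (5.16, the others 3.67 to 3.82) and *Fancd2* (27.8, the others 25.9 to 26.2) and the lowest for *Egfl7* (4.06, the others 5.3 to 5.53) and *Hes5* (16.4, the others 23.9 to 25). Library 8 was the lowest for *Olig1* (1251, the others 1328 to 1337).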

How the results depend on the processing

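Among genes called both here and under an alternative, 2 of 6709 had the opposite direction on log2(TPM + 1) and 3 of 6803 on log2(TPM + 0.1), and 0 did with DESeq2, library totals, voom, other filters, the 8 libraries alone, the Y-linked covariate, the study's own test or any library left out. Leaving out each library gave 9192 to 9980 called genes, 4218 to 5207 higher and 4581 to 5386 lower. Genes called higher numbered 1969 and 2038 on these TPM scales, against 4964. The study's own test on TPM called 5592 genes, 965 of them higher. A log2 fold change of at least 1 left 3848 genes, 1997 higher and 1851 lower. Of the 170 genes with values here, 166 of 166 tested kept direction and call with DESeq2, 158 with the Y-linked covariate, 155 on log2(TPM + 1) and 124 in the study's own test. The cause of these changes was not tested.

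Values that turned negative on log2(TPM + 0.1), log2(TPM + 1) and the study's own test, in that order, were those of *Phgdh* (−0.09, −0.09 and −0.08) and *Psat1* (−0.21, −0.20 and −0.19). Of the list medians given in the report, those that turned negative were of neural stem cell genes (−0.29, −0.28 and −0.30), Fanconi anaemia genes (−0.10, −0.07 and −0.08), mismatch repair genes (−0.18, −0.15 and −0.14), excision repair genes (−0.25, −0.25 and −0.23), growth factor receptor and ERK feedback genes (−0.05, −0.05 and −0.08) and lysosomal genes (−0.14, −0.14 and −0.17). On log2(TPM + 1) and the study's own test the medians of other lists turned negative too, namely of fatty acid synthesis (0.21 to −0.27 and −0.23), end joining (0.07 to −0.37 and −0.36), Hedgehog (0.03 to −0.35 and −0.37) and imprinted genes (0.09 to −0.32 and −0.35), integrins (0.72 to −0.03 and −0.11) and midbrain, hindbrain and spinal cord factors (0.26 to −0.04 and −0.05). With a library left out, the medians given in the report that moved over 1.5 times were those of neural stem cell genes (0.16, from 0.03 without treated library 6 to 0.32 without WT library 11, and 0.06 or 0.10 without library 7, 9, 10 or 12), excision repair genes (0.17, but 0.06, 0.07, 0.08 and 0.10 without libraries 7, 12, 5 and 10), lysosomal genes (0.26, but 0.09 and 0.13 without libraries 10 and 9), Fanconi anaemia genes (0.30, but 0.19 without library 10), BMP and TGF-beta pathway genes (−0.12, but −0.22 without library 7 and −0.19 without 10 or 12) and collagens and laminins (0.72, but 1.22 and 1.37 without libraries 11 and 12), and that of mitochondrial mRNAs, at 0.00, ran from −0.21 to 0.17. Other list medians that did so ran from 0.05 to 0.17 for fatty acid synthesis genes, −0.29 to −0.09 for forebrain factors (−0.20), −0.07 to 0.15 for end joining genes, −0.07 to 0.18 for Hedgehog genes, −0.06 to 0.10 for imprinted genes, −0.17 to 0.07 for unfolded protein response genes (−0.01), 0.07 to 0.59 for midbrain, hindbrain and spinal cord factors, −0.18 to 0.04 for voltage-gated channel genes (−0.05) and −0.39 to −0.19 for NADPH oxidase genes (−0.24). *Eif2s3y*, part of the covariate, was 0.66 with it.

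No paired analysis was possible because the groups compared share no replicate numbers, which run from 5 to 8 and from 9 to 12. Depth limits genes near 3 counts per library, such as *Ncf1* and most NADPH oxidase genes. The groups also differ in sex-linked expression, and WT libraries 11 and 12 decide the size of several values.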
